A study of Mus musculus with 24 samples.

Results

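The genes described here are the core of the Nrf2 switch: Nfe2l2, which encodes the transcription factor Nrf2, its relatives Nfe2l1 and Nfe2l3, the sensor Keap1 with the ubiquitin ligase scaffold Cul3 and the Keap1-binding autophagy receptor Sqstm1, the small Maf partners Maff, Mafg and Mafk, and the competing repressor Bach1. They were taken by gene name, with older symbols brought up to date, and every array probe of each gene was used. These 10 genes were read by 14 of the 41174 probes on the array. All 14 were well above background in the oesophageal channel on all 24 arrays and entered the tests, which covered 29997 probes.

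The samples were oesophagi of male C57BL/6J mice aged 12 weeks, either wild type or Nrf2-/- (called Nrf2-null below). Mice of each genotype were kept without reflux or had gastric, duodenal or mixed reflux, for 4 weeks per the series title. Each of the 8 groups held 3 arrays, which the labels call biological replicates. Every array set oesophageal RNA, labelled with Cy5, against 1 commercial reference RNA of 11 mouse cell lines, labelled with Cy3. The labels do not say which stretch of Nfe2l2 the mutation removes, nor do they name a Cre driver or tissue restriction for it. Most labels call the samples oesophageal epithelium, but 1 field names whole oesophagus for 7 of the groups and epithelium for Nrf2-null mixed reflux.

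Nrf2 is made continuously and destroyed continuously. Keap1 holds it in the cytoplasm and, through Cul3, has it marked for the proteasome; electrophiles and oxidants modify Keap1 cysteines, and Nrf2 then accumulates, enters the nucleus and pairs with a small Maf protein on antioxidant response elements. Bach1 pairs with the same small Mafs and represses many of the same elements until heme displaces it. Because this control acts largely on proteins, the transcript of a regulator does not report the activity of its protein, and only transcripts were measured here. In the oesophagus the pathway is known from mice without Keap1, whose squamous epithelium thickens and over-keratinises.

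Where each Nfe2l2 probe lies decides what it can report about the mutant, so the first 30 bases of its 3 probes are given, as deposited. All lie on the minus strand of chromosome 2 (build mm9), the brightest at chr2:75513917-75513976, its neighbour at chr2:75513771-75513830 and an upstream probe at chr2:75529947-75530006, which lies 15971 bases upstream in the direction of transcription. No exon annotation of that build was used here.
A_52_P396436: gtactgctaaaacttcctactgtgatgtga
A_51_P411271: ctcaagttaatttcttaggcaccatttggg
A_52_P523835: tagtaatcctttttataggcccaaattgca

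Small Maf heterodimers bind the antioxidant response element, so the promoters of the 10 genes were searched for its core, TGACNNNGC, on both strands, in windows of 300 bases from 250 before to 50 after each RefSeq start (build GRCm38.p6). The core was present for 4 of 10 genes, Nfe2l2 and all 3 small Mafs, and in 4 of their 16 promoters. It was present in 12.4% of 32851 promoters of that length and for 14% of 27025 genes. In the lines below, written along each gene's own strand, capitals mark the match, which for Mafg and Mafk reads on the opposite strand. They lie at chr2:75704882-75704913 for Nfe2l2 (minus strand), chr15:79346496-79346530 for Maff (plus), chr11:120633748-120633782 for Mafg (minus) and chr5:139791510-139791544 for Mafk (plus). The match began 240, 112, 222 and 13 bases before the start in that order.
Nfe2l2: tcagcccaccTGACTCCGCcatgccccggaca
Maff: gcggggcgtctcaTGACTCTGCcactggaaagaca
Mafg: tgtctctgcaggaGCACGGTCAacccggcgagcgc
Mafk: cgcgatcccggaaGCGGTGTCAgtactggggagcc

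Values are log2 ratios of oesophagus over reference RNA, so a value of 0 means equal signal and a difference of 1 between groups is a factor of 2 in the ratio. A value after ± is an SD where called one and otherwise the standard error of the fit. A probe was called when its p-value from limma's moderated test, adjusted by the Benjamini-Hochberg method over all probes tested, was under 0.05. Brackets hold 95% intervals. Every adjusted p below comes from limma's moderated tests, in the main fit or, where an alternative is named, in that fit. The samples are bulk tissue, so fewer cells of a type and less RNA per cell cannot be told apart.

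Some arrays stand apart from the others. The 3 Nrf2-null mixed reflux arrays differed by less than repeat spots within an array (SD of the difference 0.119 to 0.133, against 0.155 to 0.161). They were counted as 1 sample, which left 22. Other pairs within a group differed by 0.191 to 1.11. The 3 wild-type duodenal arrays were also close, at 0.191 to 0.258 against 0.158 to 0.165 for repeat spots, and were kept as 3 samples. The scanner software marked 13% and 11.8% of spots as outliers on wild-type replicates 1 and 2 without reflux, against 0.293% to 0.659% elsewhere, and these spots were left out, so the 2 downstream Nfe2l2 probes, Maff and Mafg were measured on 1 array of that group, and Keap1 and Sqstm1 on 2. Arrays were scanned on 3 days, with 2, 6 and 16 arrays each. Wild-type gastric reflux lay wholly on day 2, and Nrf2-null gastric reflux and all duodenal and mixed arrays on day 3. Wild-type samples without reflux lay on days 1 and 2. Nrf2-null samples without reflux lay on days 2 and 3, with replicate 3 alone on day 3. Only that array, against replicates 1 and 2, compares days 2 and 3 within a group. Markers of squamous differentiation (19 of 20 genes measured) averaged 4.22 to 5.01 over the arrays and those of basal keratinocytes (13 genes) 3.88 to 4.94, so the labelled tissue carried its markers throughout. The mean of 21 skeletal muscle genes, of which 17 were well above background on every array, ran from 0.82 to 5.17. It was above 5 on wild-type gastric replicates 2 and 3 and Nrf2-null gastric replicate 1, and its range was 0.82 to 5.15 over wild-type and 1.83 to 5.17 over Nrf2-null gastric arrays.

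The targeted gene carried the label of every array that measured it. By the brightest probe, Nfe2l2 read 1.71 on the wild-type array that measured it without reflux, 1.96, 1.45 and 1.62 under gastric, 2.04, 2.18 and 2.09 under duodenal, and 2.06, 1.96 and 1.81 under mixed reflux. In Nrf2-null samples it read -2.86, -3.35 and -3.63 without reflux, -3.06, -3.72 and -3.81 under gastric, -3.54, -2.83 and -3.31 under duodenal, and -3.67, -3.65 and -3.69 under mixed reflux. The genotypes were separated by a wide gap in every condition, with no overlap. Where 1 array stands for a group, or the 1 averaged sample of Nrf2-null mixed reflux, the fit assumes that it varies like the samples of the other groups. With outlier-marked spots kept, the other wild-type arrays without reflux read 2.31 and 1.88. Nfe2l2 was lower in Nrf2-null samples by a log2 difference of -4.99 ± 0.33 without reflux (31.8-fold; adjusted p = 6.8e-06, 1 wild-type array against 3) and -5.21 ± 0.24 in gastric reflux (36.9-fold; 2.59e-08). It was -5.33 ± 0.24 for duodenal (40.2-fold; 1.84e-08) and -5.62 ± 0.33 for mixed reflux (49.0-fold; 1.28e-06).

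The neighbouring probe, A_51_P411271, separated the genotypes by a larger difference. It read 1.31 to 2.05 on the wild-type arrays and -7.54 to -5.03 on the Nrf2-null arrays. Its difference was -7.38 ± 0.58 without reflux (167-fold; adjusted p = 2.02e-05, 1 wild-type array against 3), -8.21 ± 0.41 in gastric (296-fold; 4.65e-08), -8.39 ± 0.41 in duodenal (336-fold; 3.38e-08) and -9.05 ± 0.58 in mixed reflux (531-fold; 1.64e-06). Its raw Cy5 signal had a median of 57597 in wild type and 144 in Nrf2-null samples, over local backgrounds of 36 to 46; for the brightest probe the medians were 40709 and 957. The lowest Nrf2-null signal of the neighbouring probe was 64.9, close to background, so the size of its fold is uncertain. The size of the fall is that of each probe, and no common fold is given.

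The upstream probe, A_52_P523835, did not separate the genotypes. It read -0.56, -0.98 and -0.78 in wild type and -0.65, -0.76 and -1.05 in Nrf2-null samples without reflux, -0.90, -1.13 and -1.48 against -0.92, -0.40 and -1.25 under gastric, and -1.20, -1.14 and -1.45 against -1.42, -0.54 and -1.27 under duodenal reflux. Under mixed reflux it read -0.52, -1.29 and -0.81 against -1.43, -1.42 and -1.51. The genotypes overlapped in every condition but the last. Over the 4 conditions the mean difference was -0.03 ± 0.14 [-0.34, 0.27] (adjusted p = 0.917), with differences of -0.58 to 0.31 within conditions (0.416 to 0.976). Its raw Cy5 signal had medians of 202 in wild type and 186 in Nrf2-null samples over backgrounds of 33 to 45. The array's annotation places this probe on a different transcript record from the other 2 probes. In wild type its signal was also far below theirs. Whether it reads the same transcript as they do, or lies in the removed part, is not known here. Its level therefore checks neither the genotype nor the labels.

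**Figure D1:**
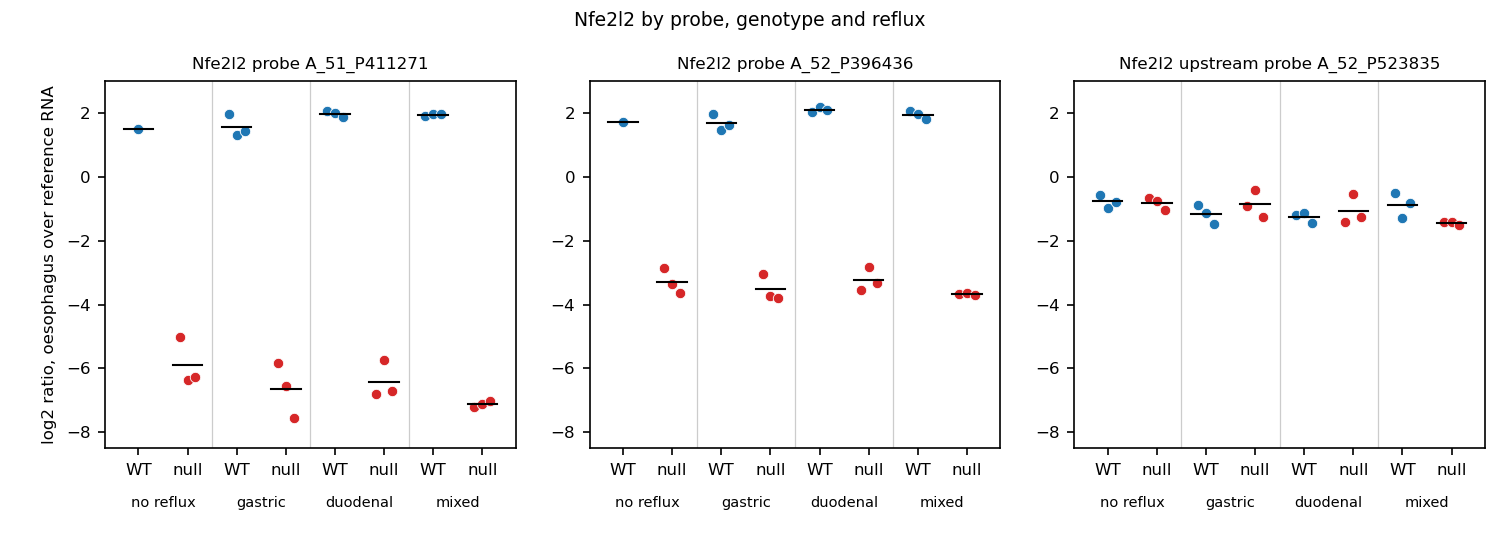
Log2 ratio of oesophagus over reference RNA for the 3 Nfe2l2 probes, by reflux condition and genotype; points are arrays (wild type blue, Nrf2-null red) and lines are group means. The brightest probe lies at 1.45 to 2.18 in wild type and -3.81 to -2.83 in Nrf2-null samples, while the genotypes overlap in 3 of 4 conditions for the upstream probe.

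Reflux itself was not accompanied by a called difference in Nfe2l2 in either genotype. For the brightest probe the differences from no reflux ran from -0.39 to 0.40 (adjusted p = 0.505 to 0.971). For its neighbour they ran from -1.23 to 0.47 (0.275 to 0.965). In wild type this comparison rests on 1 array without reflux. For the brightest probe the wild-type means were 1.68 ± 0.26 (SD, n = 3) in gastric, 2.11 ± 0.07 in duodenal and 1.94 ± 0.13 in mixed reflux.

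Nfe2l1, whose protein Nrf1 is processed at the endoplasmic reticulum and drives proteasome genes when proteasomes are inhibited, varied widely between arrays under gastric reflux. Under gastric reflux it read 0.36, 2.18 and 1.96 in wild type and 1.71, -0.08 and 0.34 in Nrf2-null samples. In the other 6 groups it read 0.24 to 0.98. The 3 high arrays are the same 3 whose skeletal muscle genes averaged above 5. The difference between genotypes under gastric reflux was -0.84 ± 0.41 [-1.71, 0.02] (adjusted p = 0.155), and that between gastric and no reflux in wild type was 1.11 ± 0.41 [0.25, 1.97] (0.129). With the muscle mean as a covariate the second was 0.29 ± 0.24 (0.525) and the first -0.61 ± 0.21 (0.0544). Nfe2l1 was thus called in no comparison of the main fit. Some alternatives added calls. The genotype difference under gastric reflux was -1.41 (0.00864) without wild-type gastric replicate 1. It was -1.37 (0.0112) without Nrf2-null gastric replicate 1 and duodenal replicate 2. With median centring, gastric against no reflux in wild type was 1.85 (0.0127). With the muscle covariate the mean genotype difference over the conditions was -0.38 (0.0466).

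Nfe2l3, the third relative, was read by 2 probes at chr6:51383065-51383124 and chr6:51408131-51408190 (mm9), and neither was called in any comparison of the main fit. Probe A_52_P380990 read 0.89 to 1.55 over all arrays, with genotype differences of 0.03 to 0.12 (adjusted p = 0.607 to 0.942). Probe A_52_P423222 read 1.63 to 4.31; its lowest array was Nrf2-null duodenal replicate 2, at 1.63 beside 3.36 and 3.63. Its genotype differences were -0.67 to 0.66 (0.347 to 0.862), and the largest reflux difference was -0.94 ± 0.43 for duodenal reflux in Nrf2-null samples (0.138), which includes that lowest array. With local backgrounds as read, both probes were called higher in Nrf2-null samples without reflux, by 0.66 (0.0317) and 2.55 (0.00557). Both were then also called for gastric and duodenal reflux in wild type.

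Keap1, the cysteine sensor, was lower in Nrf2-null than in wild-type samples under gastric reflux. Its probe spans 441 bases of chromosome 9 (chr9:21035292-21035732, mm9), more than its own length. In wild type it read 0.66 and 1.43 without reflux, 1.05, 0.88 and 1.29 under gastric, 0.22, -0.45 and -0.26 under duodenal, and -0.54, 0.09 and 0.60 under mixed reflux. The Nrf2-null values were 0.74, 0.72 and -0.62 without reflux, 0.35, -1.06 and -0.45 under gastric, -0.47, -0.52 and -0.11 under duodenal, and -0.48, -0.54 and -0.55 under mixed reflux. The genotypes did not overlap under gastric reflux and overlapped in the other 3 conditions. Keap1 fell by 1.46 ± 0.40 under gastric reflux (2.75-fold, [-2.30, -0.62], adjusted p = 0.0212). The differences elsewhere were -0.77 ± 0.44 without reflux (0.707), -0.20 ± 0.40 under duodenal (0.818) and -0.57 ± 0.56 under mixed reflux (0.666), and their mean over the 4 conditions was -0.75 ± 0.23 (0.0548).

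Keap1 was also lower in duodenal reflux than without it when both genotypes were averaged, with a difference of -0.93 ± 0.30 (1.90-fold, [-1.56, -0.30], adjusted p = 0.0325). In wild type alone the differences were -1.21 ± 0.44 for duodenal (0.0975) and -1.0 ± 0.44 for mixed reflux (0.402). Those wild-type reflux arrays share no scan day with wild type without reflux. By scan day Keap1 read 0.66 to 1.43 on days 1 and 2 (7 arrays) and -1.06 to 0.60 on day 3 (16 arrays), with no overlap. Day 3 holds all duodenal, mixed and Nrf2-null gastric arrays, so this split is also one of reflux and genotype. With scan day as a block the Keap1 difference under gastric reflux was -0.12 ± 0.60 (0.976) and that for duodenal reflux -0.00 ± 0.50 (1). The step between days 2 and 3 in that fit rests on Nrf2-null replicate 3 without reflux. Keap1 read -0.62 on that array, beside 0.72 and 0.74 on the others of its group. Genotype and scan day cannot be told apart for gastric reflux by the arrays of the 2 gastric groups themselves.

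Cul3, the scaffold of the ligase that Keap1 serves, was lower under duodenal reflux in Nrf2-null samples by both of its probes, at chr1:80263619-80263680 and chr1:80268109-80268168 (mm9). The brighter probe read 1.11, 0.73 and 0.80 in Nrf2-null samples without reflux and 0.15, -0.35 and 0.28 under duodenal reflux. The other read 0.86, 0.89 and 1.02 and then -0.06, -0.68 and -0.14. The groups did not overlap for either probe. The fall was 0.85 ± 0.21 on the log2 scale for the brighter probe (1.81-fold, difference [-1.30, -0.41], adjusted p = 0.0105) and 1.21 ± 0.30 for the other (2.32-fold, [-1.84, -0.58], 0.0101).

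The wild type did not carry a called difference in Cul3. Its brighter probe read 0.58, 0.51 and 0.22 without reflux, 0.70, 0.66 and 0.55 under gastric, 0.54, 0.46 and 0.42 under duodenal, and 0.45, 0.62 and 0.66 under mixed reflux, all within a narrow range. The F test for a genotype difference that varies with the reflux condition gave an adjusted p of 0.175 for the brighter probe and 0.253 for the other, and neither passed. The genotype difference under duodenal reflux was -0.45 ± 0.21 (0.278) and -0.74 ± 0.30 (0.211). Averaged over genotypes, the second probe was lower in duodenal than without reflux by 0.66 ± 0.21 (1.59-fold, difference [-1.11, -0.22], 0.0295), against -0.41 ± 0.15 for the first (0.0559). This call of the second probe was lost in 15 of 39 alternative analyses, 9 of which left out 1 library. Scan day as a block was another of them.

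The lowest Cul3 values came from 2 arrays of low signal. Nrf2-null gastric replicate 1 read -0.27 beside 0.63 and 0.61, and Nrf2-null duodenal replicate 2 read -0.35; their median raw Cy5 signals were 88.2 and 85.3, below that of every other array except wild-type replicate 2 without reflux (81.8). Without Nrf2-null duodenal replicate 2 the duodenal differences were -0.66 ± 0.22 (adjusted p = 0.0592) and -1.02 ± 0.32 (0.0529). Among day 3 arrays alone, which leaves 1 Nrf2-null sample without reflux, they were -0.78 ± 0.35 (0.36) and -1.31 ± 0.51 (0.296). In these 2 analyses both probes lose their call and keep their sign. Other omissions added calls. Without both arrays of low signal the F test passed for both probes (adjusted p = 0.0432 and 0.0410), as did the averaged duodenal difference of the brighter probe (-0.31, 0.0149). Without Nrf2-null gastric replicate 1 alone the F test passed as well (0.0458 and 0.0286), and the genotype difference of the second probe under duodenal reflux was -0.74 (0.0203).

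Sqstm1 encodes p62, which binds Keap1, draws it into autophagosomes and is itself an Nrf2 target. In wild type its probe (chr11:50013670-50013729, mm9) read -1.43 and -1.22 without reflux, -0.99, 0.10 and -0.28 under gastric, -1.70, -1.82 and -1.71 under duodenal, and -1.67, -1.07 and -1.48 under mixed reflux. The Nrf2-null values were -1.66, -1.56 and -1.44 without reflux, -1.01, -1.8 and -1.45 under gastric, -1.64, -1.41 and -1.55 under duodenal, and -1.71, -1.73 and -1.82 under mixed reflux. Wild-type gastric reflux was the high group, and its lowest array, -0.99, lay just above the highest Nrf2-null gastric array, -1.01. Sqstm1 fell by 1.03 ± 0.24 in Nrf2-null samples under gastric reflux (2.04-fold, difference [-1.53, -0.52], adjusted p = 0.0111). In the other conditions the differences were -0.35 to 0.21 (0.662 to 0.865), and gastric against no reflux in wild type was 0.93 ± 0.27 [0.37, 1.5] (0.0604).

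The 2 highest Sqstm1 arrays are again the wild-type gastric arrays rich in skeletal muscle genes. The highest Nrf2-null array, -1.01, was likewise the muscle-rich one. At a muscle mean above 5 Sqstm1 read 0.10 and -0.28 in wild type against -1.01 in the Nrf2-null sample. That sample was a single array of low signal (median raw Cy5 88.2), scanned on day 3, and the wild-type arrays were scanned on day 2. The part of muscle content in the genotype difference was not tested by these arrays. With the muscle mean as a covariate the genotype difference under gastric reflux was -0.90 ± 0.13 (adjusted p = 0.000769), and its mean over the 4 conditions was -0.43 ± 0.08 (0.00232), against -0.35 ± 0.14 (0.128) without it. With scan day as a block the gastric difference was -1.20 ± 0.45 (0.824), of similar size without a call.

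**Figure D2:**
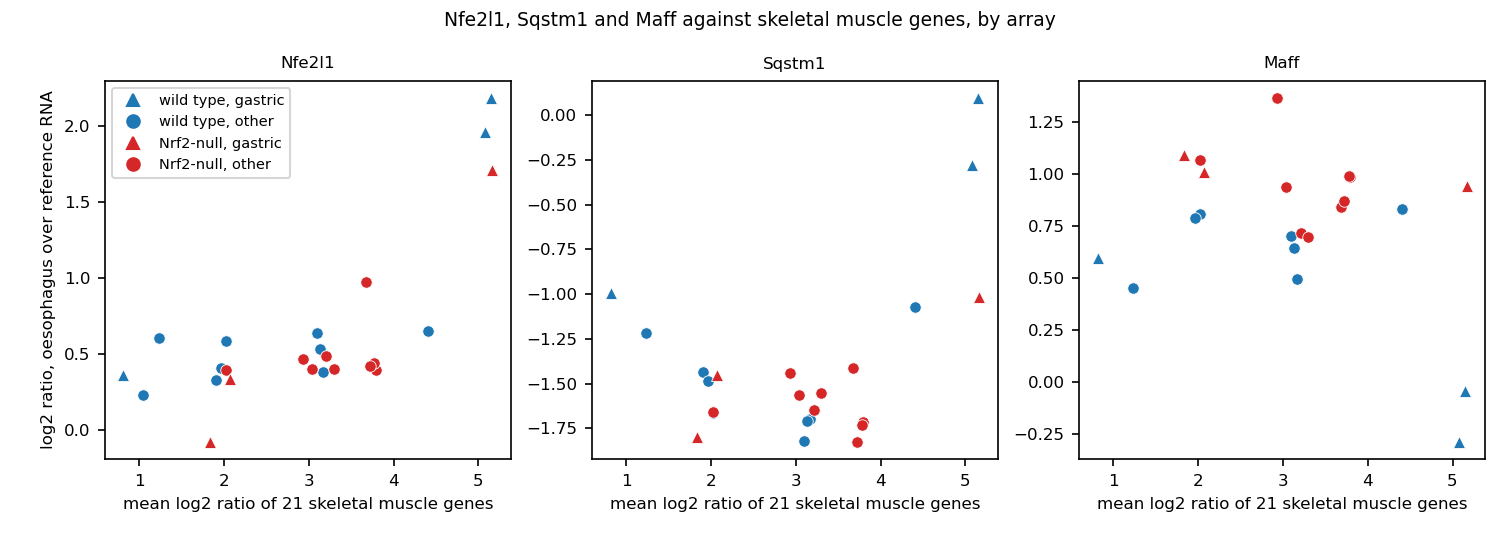
Log2 ratio of Nfe2l1, Sqstm1 and Maff on each array (vertical axes) against the mean log2 ratio of 21 skeletal muscle genes on that array (horizontal axes); wild type blue, Nrf2-null red, gastric reflux as triangles. The 3 gastric arrays with a muscle mean above 5 hold the 3 highest Nfe2l1 values, and Maff is lowest on the 2 of them that are wild type.

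Among the small Mafs, which lack an activation domain and act through their partners, Maff was higher in Nrf2-null samples. Its probe (chr15:79189442-79189501, mm9) read 0.45 on the wild-type array that measured it without reflux, 0.60, -0.05 and -0.29 under gastric, 0.50, 0.70 and 0.64 under duodenal, and 0.80, 0.83 and 0.79 under mixed reflux. Nrf2-null samples read 1.07, 0.93 and 1.36 without reflux, 0.94, 1.09 and 1.01 under gastric, 0.72, 0.84 and 0.70 under duodenal, and 0.99, 0.99 and 0.87 under mixed reflux. Among the arrays that measured Maff, the Nrf2-null values lay above the wild-type values of their condition, except under duodenal reflux, where 1 pair of arrays overlapped by less than 0.01. With outlier-marked spots kept, the other wild-type arrays without reflux read 1.01 and 0.59, and the first of these lies within the Nrf2-null range. Maff rose by 0.93 ± 0.18 under gastric reflux (1.90-fold, [0.54, 1.31], adjusted p = 0.00565) and by 0.47 ± 0.11 as the mean of the 4 conditions (1.38-fold, [0.23, 0.70], 0.0210). Without reflux the difference was 0.67 ± 0.26 (0.555, 1 wild-type array against 3) and 0.44 ± 0.19 (0.585) with outlier-marked spots kept, and under duodenal and mixed reflux it was 0.14 ± 0.18 (0.715) and 0.14 ± 0.26 (0.845).

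With the muscle mean as a covariate the Maff differences were 0.86 ± 0.16 under gastric reflux (adjusted p = 0.00286) and 0.52 ± 0.09 over the conditions (0.00334). With scan day as a block they were 0.56 ± 0.32 (0.833) and 0.35 ± 0.14 (0.415). The sign was the same in each of these fits. The size under gastric reflux was smaller by more than 1.5 times with the day as a block.

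Mafg was lower in Nrf2-null samples under gastric reflux. Its probe (chr11:120490341-120490400, mm9) read 0.35 on the wild-type array that measured it without reflux, 0.36, 0.39 and 0.41 under gastric, -0.38, -0.64 and -0.47 under duodenal, and -0.43, -0.62 and 0.04 under mixed reflux. In Nrf2-null samples it read 0.09, -0.08 and -1.01 without reflux, -0.11, -1.44 and -1.17 under gastric, -0.59, -0.11 and -0.39 under duodenal, and -1.04, -1.0 and -0.87 under mixed reflux. Wild-type gastric arrays lay close together and above all Nrf2-null gastric arrays. Mafg fell by 1.29 ± 0.32 under gastric reflux (2.45-fold, difference [-1.96, -0.63], adjusted p = 0.0147), and its mean over the conditions was -0.62 ± 0.19 (0.064). By scan day it read -0.08 to 0.41 on days 1 and 2 (6 arrays) and -1.44 to 0.04 on day 3 (16 arrays), which overlap. With the day as a block the gastric difference was -0.28 ± 0.49 (0.929). Both readings carry the limits given for Keap1.

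Mafk was the only member whose genotype difference depended on the reflux condition by the F test over the 4 conditions (adjusted p = 0.0362), while 3.81% of all probes passed that test. Its probe (chr5:140278320-140278379, mm9) read 0.83, 0.74 and 0.53 in wild type without reflux, 0.88, 1.21 and 1.35 under gastric, 0.75, 0.69 and 0.86 under duodenal, and 0.81, 0.77 and 0.69 under mixed reflux. In Nrf2-null samples it read 0.81, 0.97 and 0.80 without reflux, 0.68, 0.54 and 0.79 under gastric, 1.27, 1.12 and 1.33 under duodenal, and 0.79, 0.72 and 0.87 under mixed reflux. The high group was gastric reflux in wild type and duodenal reflux in Nrf2-null samples, and in both conditions the genotypes did not overlap. Mafk fell by 0.48 ± 0.13 in Nrf2-null samples under gastric reflux (1.39-fold, difference [-0.76, -0.20], adjusted p = 0.0221) and differed by 0.47 ± 0.13 [0.19, 0.75] under duodenal reflux (0.0794). Without reflux and under mixed reflux the differences were 0.16 ± 0.13 (0.799) and 0.04 ± 0.19 (0.953). Their mean was 0.05 ± 0.07 (0.737), since the gastric and duodenal differences have opposite signs.

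The call for Mafk was lost in 20 of 39 alternative analyses, with adjusted p of 0.00523 to 0.321, and 13 of these 20 leave out 1 library. The duodenal comparison lies wholly on scan day 3, and with the day as a block it was 0.47 ± 0.13 (0.0895). Under gastric reflux it was then -0.38 ± 0.24 (0.842).

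**Figure D3:**
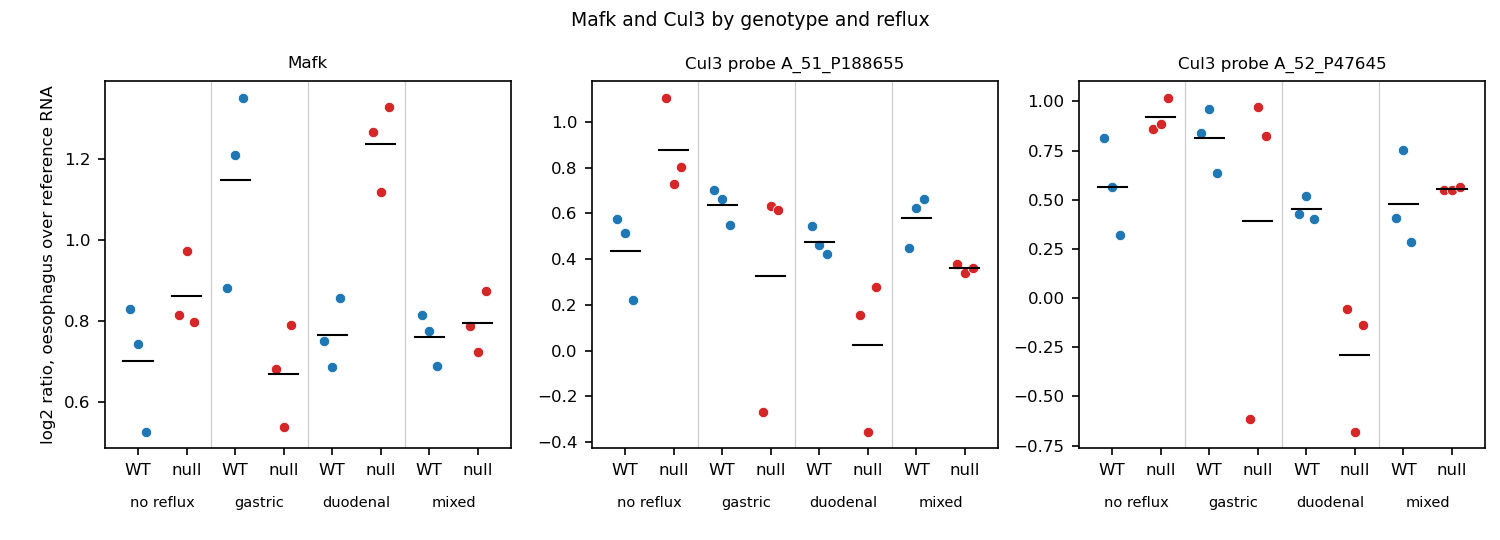
Log2 ratio of oesophagus over reference RNA for Mafk and the 2 Cul3 probes, by reflux condition and genotype; points are arrays (wild type blue, Nrf2-null red) and lines are group means. Mafk lies at 1.12 to 1.33 in Nrf2-null duodenal and at 0.88 to 1.35 in wild-type gastric reflux; both Cul3 probes have their lowest group mean in Nrf2-null duodenal reflux.

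Bach1, the heme-regulated repressor, was lower in Nrf2-null samples under gastric reflux. In wild type its probe (chr16:87730879-87730938, mm9) read 0.97, 1.03 and 1.14 without reflux, 1.40, 0.98 and 1.06 under gastric, 0.10, -0.79 and -0.39 under duodenal, and -0.79, -0.29 and 0.53 under mixed reflux. Nrf2-null samples read 0.79, 0.39 and -1.04 without reflux, 0.97, -1.50 and -0.95 under gastric, -0.55, 0.05 and -0.16 under duodenal, and -1.04, -1.14 and -1.13 under mixed reflux. The Nrf2-null gastric arrays were themselves far apart, and the highest of them lay just below the lowest wild-type array. Bach1 fell by 1.64 ± 0.52 under gastric reflux (3.12-fold, difference [-2.75, -0.54], adjusted p = 0.0400). The other differences were -1.0 ± 0.52 without reflux (0.664), 0.14 ± 0.52 under duodenal (0.912) and -0.92 ± 0.74 under mixed reflux (0.58).

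Bach1 differed by -1.41 ± 0.52 between duodenal and no reflux in wild type (adjusted p = 0.1), and by -1.23 ± 0.52 for mixed reflux (0.376). Those wild-type reflux arrays share no scan day with wild type without reflux. By scan day Bach1 read 0.39 to 1.40 on days 1 and 2 (8 arrays) and -1.50 to 0.97 on day 3 (16 arrays). With the day as a block the gastric genotype difference was -0.02 ± 0.87 (0.997). The limits given for Keap1 hold here too.

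**Figure D4:**
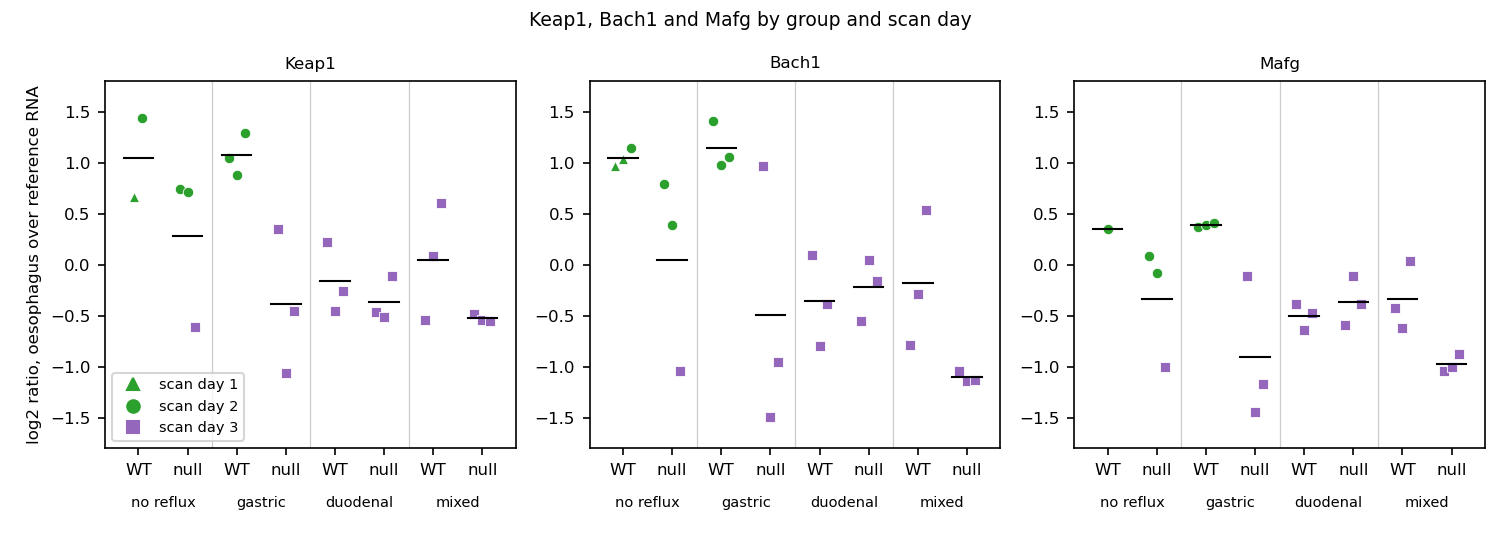
Log2 ratio of oesophagus over reference RNA for Keap1, Bach1 and Mafg by reflux condition and genotype, with the marker shape and colour of each point giving its scan day. Keap1 lies at 0.66 to 1.43 on days 1 and 2 and at -1.06 to 0.60 on day 3.

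Gastric reflux was the condition with the most calls between genotypes, among the members and among all probes alike. Its 2 groups were scanned on different days. There 8 of 14 probes were called, 2 of them of Nfe2l2, which is 57.1% where 17.5% of all probes were called. The 8 probes belonged to 7 of the 10 genes. Of the 8, 1 was higher and 7 were lower, where 8.97% of all probes were higher and 8.51% lower. The median difference of the 14 probes was -0.66, against 0.07 over all probes tested. A scan-day block takes its step between days 2 and 3 from Nrf2-null replicate 3 without reflux against replicates 1 and 2. With it, 2 of 14 remained called, both of Nfe2l2, and 0.0167% of all probes were called. Without wild-type gastric replicate 2 or 3 the count was 3, and without Nrf2-null gastric replicate 2 it was 4.

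In the other conditions the calls between genotypes were those of Nfe2l2. Without reflux 2 of 14 probes were called, both lower, where 0.147% of all probes were called and 0.0767% lower. Without wild-type replicate 3, the array of that group that measured them, these 2 probes cannot be tested and 10 of 14 can, of which 0 were called. The duodenal count was 2 of 14 (1.53% of all probes called, 0.623% lower) and the mixed count 2 of 14 (2.72%, 0.827% lower). In the duodenal comparison 5 of 14 had an unadjusted p under 0.05. As the mean of the 4 conditions 3 of 14 were called where 7.49% of all probes were: Maff higher (4.95% of all probes) and the 2 of Nfe2l2 lower (2.54%). Leaving out wild-type replicate 3 of no reflux, which takes away the tests of Maff and of those 2 probes, gave 0, and leaving out Nrf2-null gastric replicate 1 gave 7.

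**Figure D5:**
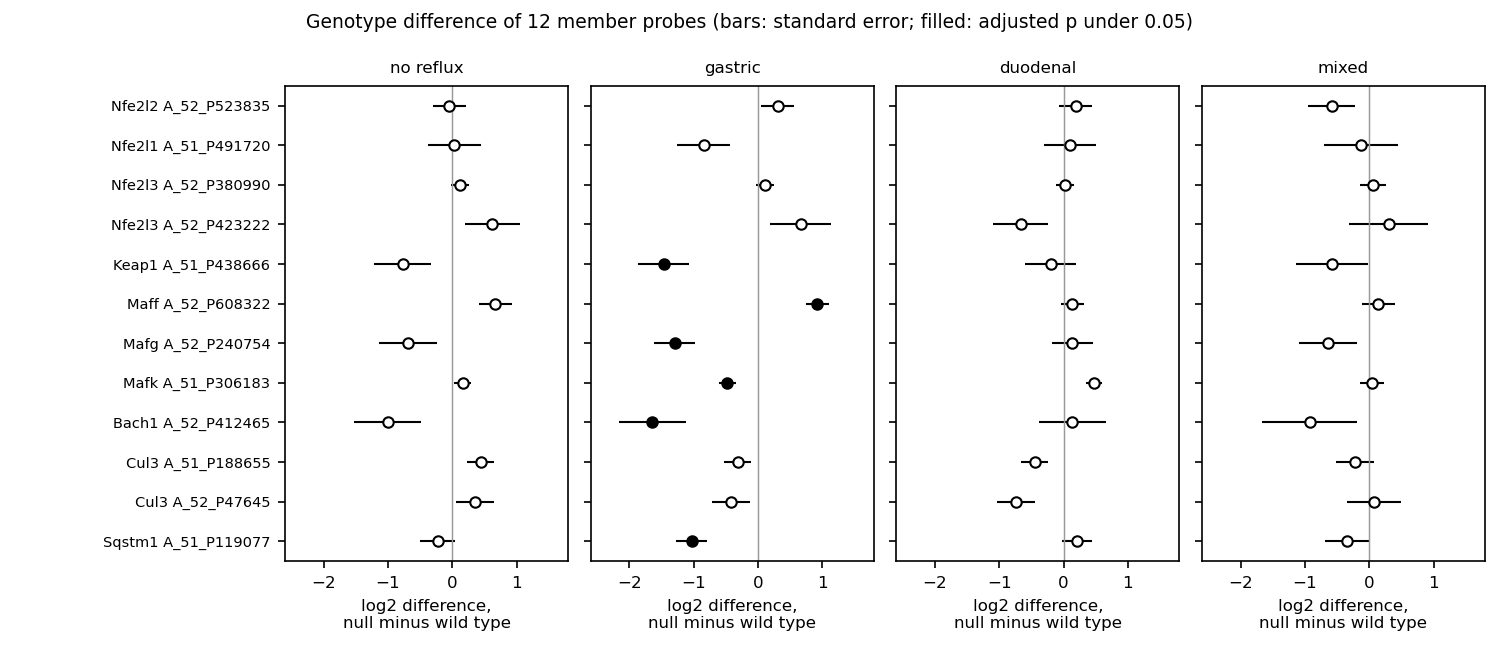
Log2 difference, Nrf2-null minus wild type, of the 12 member probes other than the 2 that detect the loss of Nfe2l2, in each reflux condition (horizontal axes; bars are standard errors, filled points have an adjusted p under 0.05). The 6 filled points all lie under gastric reflux, 5 below 0 and Maff above it.

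Reflux against no reflux gave few calls among the members in either genotype. In wild type, limma called 0 of 14 probes under gastric (3.88% of all probes; 3 members at an unadjusted p under 0.05), 0 under duodenal (9.67%; 2) and 0 under mixed reflux (0.0333%; 2). In Nrf2-null samples it called 0 under gastric (0.303%; 1), 2 under duodenal (18.9%; 4), both of Cul3 and both lower (7.5% of all probes lower), and 0 under mixed reflux (3.88%; 1). Averaged over genotypes it called 0 for gastric (0.69%; 3), 2 for duodenal (24.3%; 5), namely Keap1 and 1 probe of Cul3, both lower (9.67% of all probes lower), and 0 for mixed reflux (5.01%; 2). These comparisons share the samples without reflux. In wild type, duodenal and mixed reflux share no scan day with no reflux, so reflux and day cannot be told apart by the arrays of those groups. The duodenal share of members, 14.3%, lay below that of all probes in both comparisons that called any.

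The order of the group means was mostly within the spread of the arrays. Of 98 steps between neighbours in that order, 29 bordered Nrf2-null mixed reflux or a group measured on 1 array, have no SD on that side and were not judged. Of the other 69, 9 exceeded the larger SD of the 2 groups, among them the gap between genotypes in the brightest Nfe2l2 probe. Sqstm1 had 2 such steps of 6, Maff 1 of 3, Mafk 1 of 5 and Bach1 1 of 6, and Keap1, Nfe2l1, Mafg and both Nfe2l3 probes had 0.

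Part of the list of genes that Nrf2 switches on was lower in Nrf2-null samples in each condition. These are 40 genes, mostly of enzymes and transporters, of which 38 were tested, counted by the brightest probe of each gene. The list held 0 higher and 10 lower genes without reflux, where 0.17% of all genes were called and 0.0828% lower. Gastric reflux gave 0 and 24 (17.5% of all genes, 7.12% lower), duodenal 1 and 10 (1.66%, 0.604% lower) and mixed reflux 1 and 9 (3.1%, 1.02% lower). Its median difference was -0.66, -0.94, -0.64 and -0.77 in that order, against 0.03, 0.11, 0.05 and 0.01 over all genes tested. As the mean of the 4 conditions 25 were lower and 0 higher (7.76% of all genes called, 2.27% lower), with a median of -0.73 against 0.03.

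The leading target genes were conjugating and reducing enzymes. Over the 4 conditions the quinone reductase Nqo1 fell by 2.97 ± 0.13 (7.81-fold), and the glutathione transferases Gstm1, Gstm3 and Gsta3 differed by -2.76 ± 0.10, -2.30 ± 0.12 and -2.29 ± 0.12. Under gastric reflux Gclc, which catalyses the first step of glutathione synthesis, fell by 2.86 ± 0.36 (adjusted p = 0.000746), and Aox1, an aldehyde oxidase, fell by 3.18 ± 0.78 (0.0135). The exception was Gsr, glutathione reductase, singled out after its values were seen: it fell by 1.12 ± 0.15 under gastric reflux (0.00118) but rose by 0.73 ± 0.15 under duodenal (0.0275) and by 1.38 ± 0.22 under mixed reflux (0.00302). Without wild-type replicate 3 of no reflux only 16 of the 38 genes have a wild-type value without reflux and can be tested, and 8 of those 16 were called. The count of 25 became 14 with scan day as a block, also 14 with arrays centred on their median in place of loess, and 30 on leaving out both arrays of low Cy5 signal.

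Some targets of Bach1 in heme and iron handling were also lower. Of 12 genes, all tested, 0 were called without reflux (3 at an unadjusted p under 0.05), 4 were lower in gastric, 2 in duodenal and 2 in mixed reflux, and 7 were lower as the mean of the conditions, with 0 higher in each. Of all genes 7.12%, 0.604%, 1.02% and 2.27% were lower in that order. The median of the mean difference was -0.58, against 0.03 over all genes tested. Blvrb, biliverdin reductase B, fell by 1.14 ± 0.13 (adjusted p = 8.89e-05), the iron exporter Slc40a1 by 1.03 ± 0.25 (0.0188), Gclm by 0.80 ± 0.23 (0.0412) and the ferritin light chain Ftl1 by 0.78 ± 0.11 (0.00119). Hmox1, heme oxygenase, fell by 1.30 ± 0.29 under mixed (0.0255) and by 0.83 ± 0.21 under gastric reflux (0.0156). Of the 12 genes 6 also stand in the Nrf2 target list, as do 4 of the 7 that were lower, so the lists are not separate readings. The count of 7 became 1 with scan day as a block and 2 with median centring. Without wild-type replicate 3 of no reflux 7 of the 12 genes could be tested, and 3 of them were called.

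The ligase machinery around Keap1 and its second route through beta-TrCP had a called share near that of all genes under gastric reflux (17.5%). The same held for duodenal reflux in Nrf2-null samples (19.4% of all genes). Of 17 tested, 1 was higher and 2 lower under gastric reflux, where 10.4% of all genes were higher and 7.12% lower: the RING subunit Rbx1 rose by 0.66 ± 0.14 (adjusted p = 0.00679), while the kinase Gsk3b and the substrate receptor Btrc fell by 1.30 ± 0.31 (0.0121) and 0.66 ± 0.18 (0.0192). Under mixed reflux Dcun1d1, which promotes cullin neddylation, fell by 0.78 ± 0.19 (0.0368), where 1.02% of all genes were lower. Under duodenal reflux in Nrf2-null samples, where Cul3 fell, Rbx1 rose by 0.51 ± 0.14 (0.0185) and Dcun1d1 and Gsk3b fell by 0.92 ± 0.13 (0.000382) and 0.94 ± 0.31 (0.0437), where 13.2% of all genes were higher and 6.18% lower. The gastric count of 3 was 6 without Nrf2-null gastric replicate 1 and 1 without wild-type gastric replicate 3.

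Of 24 Keap1-binding and p62-linked autophagy genes, 0 were higher and 4 lower under gastric reflux, where 17.5% of all genes were called and 7.12% lower. They were the autophagy receptor Optn (-1.69 ± 0.42, adjusted p = 0.0139), Calcoco1 (-0.90 ± 0.22, 0.0127), and the LC3 family genes Map1lc3a (-0.85 ± 0.19, 0.0100) and Gabarapl1 (-0.61 ± 0.19, 0.0445). Sqstm1 was lower in the same comparison, whose groups were scanned on different days. Under duodenal reflux in Nrf2-null samples 0 were higher and 5 lower, led by Calcoco1 (-1.51 ± 0.22, 0.000291) and the initiating kinase Ulk1 (-1.28 ± 0.22, 0.00137), where 19.4% of all genes were called and 6.18% lower. In both comparisons the share called in either direction lay near that of all genes. The gastric count of 4 was 11 without Nrf2-null gastric replicate 1 and 2 without Nrf2-null gastric replicate 3 or wild-type gastric replicate 2 or 3.

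Other bZIP genes were called in both directions. Of 5 tested CNC and large Maf genes, Nfe2, the blood-cell relative of Nrf2, rose by 1.05 ± 0.24 under duodenal (adjusted p = 0.0362) and 1.65 ± 0.34 under mixed reflux (0.0129), and Bach2 fell by 1.46 ± 0.25 under mixed reflux (0.00374). Of all genes 1.05% were higher under duodenal reflux, and 2.08% higher and 1.02% lower under mixed reflux. The duodenal call of Nfe2 was lost in 12 of 41 alternative analyses, among them each that left out 1 wild-type or Nrf2-null duodenal array or Nrf2-null replicate 1 or 2 without reflux. The mean of the 10 measured of 12 neutrophil markers was 3.72 and 3.87 in Nrf2-null duodenal and mixed reflux against 2.79 and 1.91 in wild type, and its part in the Nfe2 difference was not tested. Of 18 AP-1 and ATF genes 4 were higher and 0 lower as the mean of the conditions, where 5.49% of all genes were higher: Fos by 1.34 ± 0.31 (0.0159), Batf by 1.1 ± 0.20 (0.00365), Atf3 by 0.56 ± 0.13 (0.0147) and Batf3 by 0.44 ± 0.11 (0.0258). With scan day as a block 0 of them were called, and 7 were on leaving out wild-type replicate 2 of no reflux or Nrf2-null gastric replicate 1.

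Coactivators, kinases and transcriptional inputs of Nrf2 (19 tested) held 3 higher and 0 lower genes as the mean of the conditions, where 5.49% of all genes were higher: the transcription factor Myc (0.40 ± 0.10, adjusted p = 0.0276), Brca1 (0.39 ± 0.10, 0.0310) and the stress kinase gene Eif2ak3 (0.38 ± 0.10, 0.0289), with 0 called when scan day was a block, or without wild-type duodenal replicate 1, gastric replicate 2 or mixed replicate 3. Of 7 Nrf1 processing genes 0 were called between genotypes in any condition or as the mean by limma, with 0 to 2 at an unadjusted p under 0.05. Of 31 proteasome subunits, 2 were higher and 2 lower under gastric reflux, where 17.5% of all genes were called, and 0 were called in the mean (2 at an unadjusted p under 0.05). The higher were Psmb3 (0.64 ± 0.20, 0.0345) and Psmb6 (0.47 ± 0.16, 0.0490), the lower Psmd1 (-1.23 ± 0.33, 0.0194) and Psmd7 (-0.59 ± 0.18, 0.0398). The count of 4 was 0 without wild-type gastric replicate 2 or 3, 7 without Nrf2-null duodenal replicate 2 and 2 without any of 6 other libraries, and the call of Psmb6 was lost in 27 of 40 alternative analyses.

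The genes whose profiles over the samples lay closest to each member were taken by the smallest root mean square difference between centred log2 ratios, a description over samples that share slides and scan days. For Nfe2l2 (root mean square 2.65 over 20 samples) they were Nqo1 (1.21), Gstm1 (1.59) and Esd (1.64) among 20232 genes. Closest to Keap1 (0.699 over 21 samples) were Baz2b (0.164), Dnmt3a (0.207) and Zbtb38 (0.208), and closest to Bach1 (0.865) were Ccdc88a (0.242), Gbf1 (0.243) and Herc1 (0.265). For Cul3 (0.319) they were Mtm1 (0.154), Dmxl1 (0.16) and Fig4 (0.167). Nfe2l1 (0.553) lay nearest to Sugp2 (0.173), Nnt (0.181) and Obsl1 (0.199), and Sqstm1 (0.479) to an unnamed probe (0.157), Ecrg4 (0.164) and Igf2 (0.165). Maff (0.366) was nearest to Arhgef18 (0.145), Aldoc (0.156) and Mbp (0.167), and Mafk (0.232) to Rasd2 (0.158), Tapt1 (0.164) and Mef2d (0.166). For Nfe2l3 (0.571) the nearest were Tgfa (0.226), Ap1ar (0.267) and Atp6v1e1 (0.270), and for Mafg (0.528) only unnamed identifiers (0.192 to 0.196).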

How the data were processed

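The deposited scanner files hold mean and background intensities of both dyes per spot and a log10 ratio, made with Agilent Feature Extraction 10.5.1.1 (2 arrays, build mm7) or 10.7.3.1 (22 arrays, build mm9), per the file headers; the submitters' processing notes name version 9.1. The authors also deposited log2 ratios, normalised by steps not given in the sources used here, which served as an alternative. Intensities were processed anew with limma 3.58.1 in R 4.3.3: normexp background correction (offset 50), local backgrounds marked as outliers replaced by the array's median, loess with the 1639 control spots at weight 0, and 43379 spots kept. Spots marked as outliers were left out and repeat spots averaged. A mean per group was fitted to 22 samples (14 residual and 2.939 prior degrees of freedom) and tested on simulated data. Probes were named by RefSeq accession (26918), symbol (5082) or synonym (817), and 8357 kept the file's name. The number of arrays limits the precision.

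The members, the gene lists and the tests were chosen with earlier results of these data known. Named genes are all member probes, at most 4 called genes per list and comparison with the largest difference, and the 3 nearest profiles per member. The alternatives covered background correction, normalisation, filters, probe choice, blocks for replicate, slide and scan day, muscle content and leaving out each library.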

Additional observations from a re-analysis of the deposited data

Results flagged for a closer look

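Mafk was singled out because its genotype difference depended on the reflux condition in the F test over the 4 conditions (adjusted p = 0.0362 in limma's fit). The difference was -0.48 ± 0.13 under gastric and 0.47 ± 0.13 under duodenal reflux, and 0.16 ± 0.13 and 0.04 ± 0.19 without and under mixed reflux.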

How the results depend on the processing

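The counts below are of the 14 member probes, each beside the main count in parentheses. With the scanner software's log ratio they were 1 for duodenal reflux in wild type (0), 4 for duodenal reflux averaged over genotypes (2) and 0 for the interaction (1). With local backgrounds as read they were 6 for genotype without reflux (2), 5, 3 and 1 for gastric, duodenal and mixed reflux in wild type (0 each) and 2 for the interaction (1). Median centring gave 3 for gastric reflux in wild type (0), and the authors' deposited values and outlier spots kept gave 1 each; outlier spots kept also gave 5 for the mean genotype difference (3). The interaction count was 0 with median centring, the deposited values, the stricter filter, scan day as a block with or without muscle, and without slide 1. With 1 brightest probe per gene the counts were 1 for genotype without reflux, under duodenal and under mixed reflux, for duodenal reflux in Nrf2-null samples and for its average over genotypes (2 each). A fit of only the groups compared gave 2 for genotype under gastric reflux (8), 5 for duodenal reflux in wild type (0) and 4 for its average (2). With Nrf2-null mixed reflux as 3 samples the counts were 7 for the mean genotype difference (3), 2 for gastric reflux in wild type (0), and 1 and 2 for mixed reflux in Nrf2-null samples and averaged (0 each). The replicate numbers do not pair the samples (correlations of -0.684 to 0.579 over 63 pairs, 16 above 0.1), and the replicate block with those 3 samples gave 6, 2, 1 and 2 for the same comparisons, against 7, 2, 1 and 2 without the block. Slide as a block gave 4 for genotype under duodenal reflux (2), and 3, 4 and 2 for gastric, duodenal and mixed reflux in Nrf2-null samples (0, 2 and 0). Among the latter, Bach1 was called higher under gastric (2.01, adjusted p = 0.0226) and duodenal reflux (2.98, 0.00326). Its group means ran the other way: 0.05 without, -0.49 under gastric and -0.22 under duodenal reflux. Mafg was called higher under duodenal reflux (1.85, 0.00476), with means of -0.33 without and -0.36 under it. Scan day as a block gave 2 for genotype under gastric reflux (8) and 0 for duodenal reflux in Nrf2-null samples and averaged (2 each), also with muscle as a covariate, and with both Bach1 under gastric reflux reversed to 0.13 ± 0.86 (adjusted p = 0.970). Arrays of 1 scan day alone gave 1 for genotype without reflux (2) and 0 for duodenal reflux in Nrf2-null samples (2). The muscle covariate gave 7 for the mean genotype difference (3), 1 for duodenal reflux in wild type (0) and 2 for the interaction (1). Without slide 1 the averaged duodenal count was 1 (2). Without the 2 arrays of low Cy5 signal, an alternative added after seeing the data like the joint day and muscle fit, the counts were 7 for the mean genotype difference, 3, 2 and 5 for gastric and duodenal reflux in wild type and duodenal reflux averaged, 1 for mixed reflux averaged and 3 for the interaction.

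With each library left out in turn, the counts ran from 0 to 2 for genotype without reflux, 3 to 9 under gastric, 2 to 4 under duodenal, 2 to 2 under mixed reflux and 0 to 7 for their mean. They ran from 0 to 3, 0 to 2 and 0 to 0 for gastric, duodenal and mixed reflux in wild type, 0 to 0, 0 to 3 and 0 to 0 in Nrf2-null samples, 0 to 2, 0 to 4 and 0 to 2 averaged, and 0 to 5 for the interaction. The averaged duodenal count of 2 was 0 without wild-type duodenal replicate 2 or 3 or Nrf2-null replicate 1 or 2 without reflux. Of 878 values, over all alternatives, of member probes called in the main fit, 779 kept direction and call, 98 lost the call and 1 reversed. Calls that only an alternative added are not in this tally. Depth and dye limits: no dye was swapped, and all 14 probes were marked well above background on every array. The lowest raw Cy5 signal of Nfe2l2 probe A_51_P411271 in Nrf2-null samples was 64.9, over backgrounds of 36 to 44.5.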
